A study of Mus musculus with 14 samples.

Results

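Sorted cells of the virgin mouse mammary gland were compared between the populations P5 and P6, across all genes of the array. The comparison used every array that the labels give to virgin wild-type P5 (2) or virgin wild-type P6 (2), which is 4 of the 14 arrays of the series. All came from wild-type FVB/N-J mice, and the labels name no transgene or treatment for these groups. P5 is labelled CD24-positive with high CD29 and enriched for luminal progenitors, and P6 is labelled CD24-low, with no enrichment, and as differentiated mammary epithelial cells. CD24 and CD29 (integrin beta-1) are surface proteins used to separate mammary cell types by flow cytometry after the gland is dissociated. RNA of the sorted cells was labelled with Cy5 and hybridised beside a Cy3-labelled commercial reference, a mix of 11 mouse cell lines, and values are log2 ratios, sorted cells over reference. Pregnant wild-type P5 and P6, 2 and 2 arrays, served for the last comparison. The spread behind each standard error and p-value was fitted over 12 wild-type arrays in 6 groups, virgin and pregnant P4, P5 and P6. P4 is another sorted population of the series, and its titles give the same gate, CD24-positive with high CD29, as those of P5. Whether the replicates were separate animals is not in the labels. The p-values therefore measure the spread of these 12 arrays alone, which can be technical, and not that of the 4 compared arrays by themselves.

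The mammary duct is an epithelial bilayer. Luminal cells line the lumen, carry simple-epithelium keratins and tight junctions, and include hormone-sensing cells and progenitors of milk-making cells, while basal myoepithelial cells lie under them. Around the duct, fibroblasts make a stroma of fibrillar collagen and proteoglycan and supply growth factors to the epithelium. A basement membrane of laminin, nidogen and collagen IV separates both tissues.

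The promoters of 3 epithelial and 2 collagen genes are shown because they mark the epithelial and the stromal side of the comparison and because repressors of epithelial genes, described further on, are known to bind an E-box spelled CAGGTG, read on either strand. The sequences are RefSeq's (GRCm38.p6), the 250 bases before each gene's start, 5′ to 3′ on the gene's strand, with each such E-box in capitals (on the minus strand it reads CACCTG).
Krt8, chr15:102004343-102004592, minus strand: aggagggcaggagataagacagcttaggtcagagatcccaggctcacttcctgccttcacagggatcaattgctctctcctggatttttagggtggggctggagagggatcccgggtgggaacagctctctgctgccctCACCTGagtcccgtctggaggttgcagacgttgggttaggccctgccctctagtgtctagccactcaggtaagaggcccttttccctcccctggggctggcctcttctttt
Krt18, chr15:102027966-102028215, plus strand: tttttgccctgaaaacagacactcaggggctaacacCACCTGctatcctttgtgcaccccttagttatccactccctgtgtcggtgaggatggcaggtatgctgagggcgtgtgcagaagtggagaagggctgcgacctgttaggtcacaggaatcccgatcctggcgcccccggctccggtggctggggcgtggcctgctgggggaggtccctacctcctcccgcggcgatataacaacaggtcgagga
Epcam, chr17:87635729-87635978, plus strand: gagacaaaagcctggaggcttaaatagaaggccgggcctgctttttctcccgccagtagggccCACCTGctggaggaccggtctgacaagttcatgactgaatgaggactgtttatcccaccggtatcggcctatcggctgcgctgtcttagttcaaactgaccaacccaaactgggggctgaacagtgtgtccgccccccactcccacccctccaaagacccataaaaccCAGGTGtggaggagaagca
Col1a2, chr6:4505368-4505617, plus strand: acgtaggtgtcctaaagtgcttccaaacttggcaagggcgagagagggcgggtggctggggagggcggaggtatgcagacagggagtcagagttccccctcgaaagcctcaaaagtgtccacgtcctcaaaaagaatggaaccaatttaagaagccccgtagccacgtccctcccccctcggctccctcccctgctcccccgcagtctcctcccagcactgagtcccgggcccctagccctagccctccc
Col3a1, chr1:45311288-45311537, plus strand: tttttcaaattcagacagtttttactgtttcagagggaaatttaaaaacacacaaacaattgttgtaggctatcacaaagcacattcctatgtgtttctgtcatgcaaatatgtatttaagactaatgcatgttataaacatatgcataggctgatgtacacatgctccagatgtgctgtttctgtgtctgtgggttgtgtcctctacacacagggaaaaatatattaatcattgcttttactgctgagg
The Krt8 and Krt18 windows hold 1 and 1 such E-box, that of Epcam holds 2, and both collagen windows hold 0. Searched on both strands, CAGGTG occurred in 17.2% of all 32851 RefSeq promoter windows of this length. Of the promoters of the 12 named genes most higher in P5, described below, 7 of 11 windows, from 9 genes with an entry, held it, against 0 of 8 windows from 8 of the genes most lower in P5. Over all genes called higher in P5 the share was 25.9% of 1594 windows, and over all genes called lower in P5 it was 13% of 1889. TATAAA, another letter string searched on both strands, stood in 1 place of the Col3a1 window and in none of the other 4, against 12.4% of all windows. Of the other strings searched, GGGCGG stood in 55.1% and 56.5% of windows of genes called higher and lower, against 32.7% of all windows. Called genes thus differed from all windows in both directions for that string. CANNTG stood in 63.9% and 59.5% (all windows 66.2%), CCGGAA in 15.2% and 10.2% (12%) and AACCGG in 8.22% and 6.99% (5.62%). No test was run on these shares. A match of letters is not a measured binding site.

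The genes of the gate and of the labelled cell types were read first. Cd24a, which encodes CD24, gave log2 ratios of 3.67 and 3.38 on the P5 arrays, against -0.18 and -1.36 on the P6 arrays. Its difference was 4.29 ± 0.38 (SE, n = 2 each; limma adjusted p = 1.10e-04), in the order of the gates. Itgb1, which encodes CD29, gave -1.53 and -1.34 in P5, against -0.90 and -0.26 in P6, a difference of -0.85 ± 0.48 that did not pass the test (adjusted p = 0.354), so the high CD29 of the P5 label had no counterpart in this RNA. With the replicate number as a block Itgb1 was lower in P5 (adjusted p = 0.0132). Among 18 general luminal genes, 15 were higher in P5, 0 were lower and 3 did not pass the test, beside 7.34% of all genes tested called higher in P5. Of 18 fibroblast genes, 16 were lower in P5, beside 8.81% of all genes tested called lower. The mean log2 ratio over the luminal genes was 3.59 and 3.55 on the P5 arrays and 0.71 and 0.19 on the P6 arrays. Over the fibroblast genes it was -1.33 and -1.30 on the P5 arrays and 3.15 and 3.18 on the P6 arrays. The RNA of P5 thus carried general luminal genes. Of 14 genes of luminal progenitors, the cells its label names, 6 were higher in P5 and 8 did not pass. The RNA of P6 carried fibroblast genes, which its epithelial label does not name, so the population is called P6, by its gate. Other epithelial lists were above the cell-line mix in P6 too. Luminal progenitor genes averaged 2.67 and 2.19 on the P6 arrays (4.28 and 4.11 in P5). Milk protein genes averaged 2.74 and 2.36 (4.23 and 3.97 in P5). In sorted bulk samples, fewer cells of a type and less RNA per cell cannot be told apart.

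P5 and P6 differed in a large share of the measured genes. Of 23649 genes tested, 3819 passed an adjusted p of 0.05 (Benjamini-Hochberg, limma, 12 wild-type arrays with one mean for each of 6 groups), or 16.1%. In P5, 1735 genes were higher and 2084 were lower, so 45.4% of the called genes were higher. These were 7.34% and 8.81% of all genes tested, the shares to set beside each list count. With local backgrounds as given 1596 were higher and 1241 lower (56.3% higher). The differences reached further on the P6 side. At 16-fold or more, 40 genes were higher in P5, against 264 lower, and at 4-fold or more the counts were 482 and 863. Both P5 arrays lay above both P6 arrays for 26.7% of all genes tested and below them for 26.9%. Over all genes tested the median difference was 0.00. Arrays within a population correlated over genes at 0.931 in P5 and at 0.908 in P6, and arrays of different populations at 0.459 to 0.574, as a description, since genes are not replicates.

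Replicate 1 of P5 and P6 shared one slide and scan, and replicate 2 another, so each slide gives the difference once. All 3819 called genes had the same sign on both slides, but they were called from these same arrays, so this is no separate support. Krt8, for example, differed by 4.47 on slide 1 and 5.32 on slide 2, and Col3a1 by -8.23 and -8.20. Over all genes tested the slide differences correlated at 0.944, as a description across genes. With the replicate number as a block, which pairs the arrays by slide, 6863 genes were called, 3625 higher and 3238 lower in P5, and all 3819 genes called without the block were among them. These were 15.3% of all genes tested for the higher and 13.7% for the lower ones. List counts that the block moves by over 1.5 times are given beside the lists. Without replicate 2 of P5 the count fell to 2487. The count of genes higher in P5 fell to 1138 without replicate 1 of P5, 1075 without replicate 2 of P5 and 1071 without replicate 2 of P6, and, over all genes, median centring of each array in place of loess gave 2150.

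**Figure D1:**
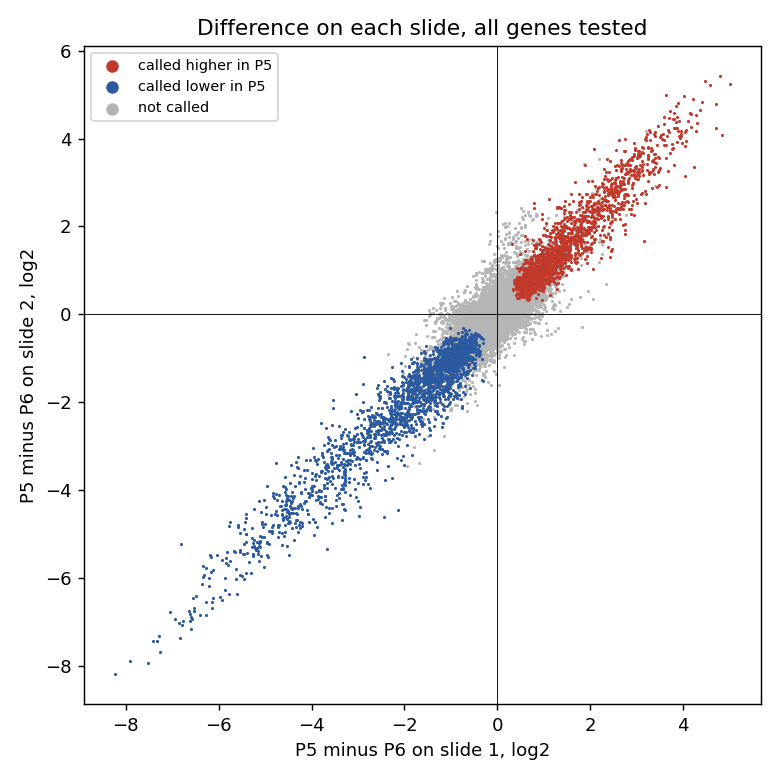
P5 minus P6 (log2) for every gene tested on slide 1 (replicate 1, x axis) and slide 2 (replicate 2, y axis). Red points are genes called higher in P5, blue points genes called lower in P5 and grey points genes that did not pass; the called genes lie in the 2 quadrants where both slides have one sign, and the blue arm reaches to -8.21 (Col3a1), against 5.12 (Krt18) at the end of the red arm.

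Keratins of simple epithelium led the P5 side. Krt18, a keratin filament protein of luminal cells, gave 4.52 and 3.92 on the P5 arrays, against -0.48 and -1.32 on the P6 arrays. Krt8, its partner in the filament and its neighbour on chromosome 15, gave 3.32 and 4.31 in P5, against -1.15 and -1.01 in P6. Krt18 had no value on replicate 2 of pregnant P5, so its spread was fitted without that array. The lowest P5 array of each gene lay more than 16-fold above the highest P6 array. Krt19, another keratin of this group, was 23.6-fold higher in P5 (4.56 ± 0.40; adjusted p = 9.25e-05). Gata3, the transcription factor of luminal fate, averaged 4.84 ± 0.23 in P5 and 0.34 ± 0.44 in P6 (SD, n = 2 each) (4.50 ± 0.54; adjusted p = 5.43e-04).

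The other genes with the widest gaps on the P5 side were mostly enzymes, membrane and transport proteins. Ido1, which degrades tryptophan, averaged 6.33 ± 0.17 in P5 and 1.58 ± 0.11 in P6 (SD, n = 2 each) and had one of the narrowest spreads (4.74 ± 0.14; adjusted p = 1.43e-06). Aoc1, which breaks down histamine, gave 5.70 and 6.50 in P5, against 1.33 and 1.84 in P6. Both were above every P6 array on both P5 arrays. The tetraspanin gene Tspan1 was 29.9-fold, Tlcd4 34.4-fold, the PDZ-domain gene Gipc2 24.6-fold and the kinesin gene Kif5c 20.6-fold higher in P5, with adjusted p from 4.99e-06 (Gipc2) to 2.25e-04 (Tspan1). The other probe of Kif5c gave 1.39, against 4.36 on its brightest. The 12 most higher genes also held Tnnc2 and Myl1, which encode proteins of fast skeletal muscle and are taken up with other cell types.

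**Figure D2:**
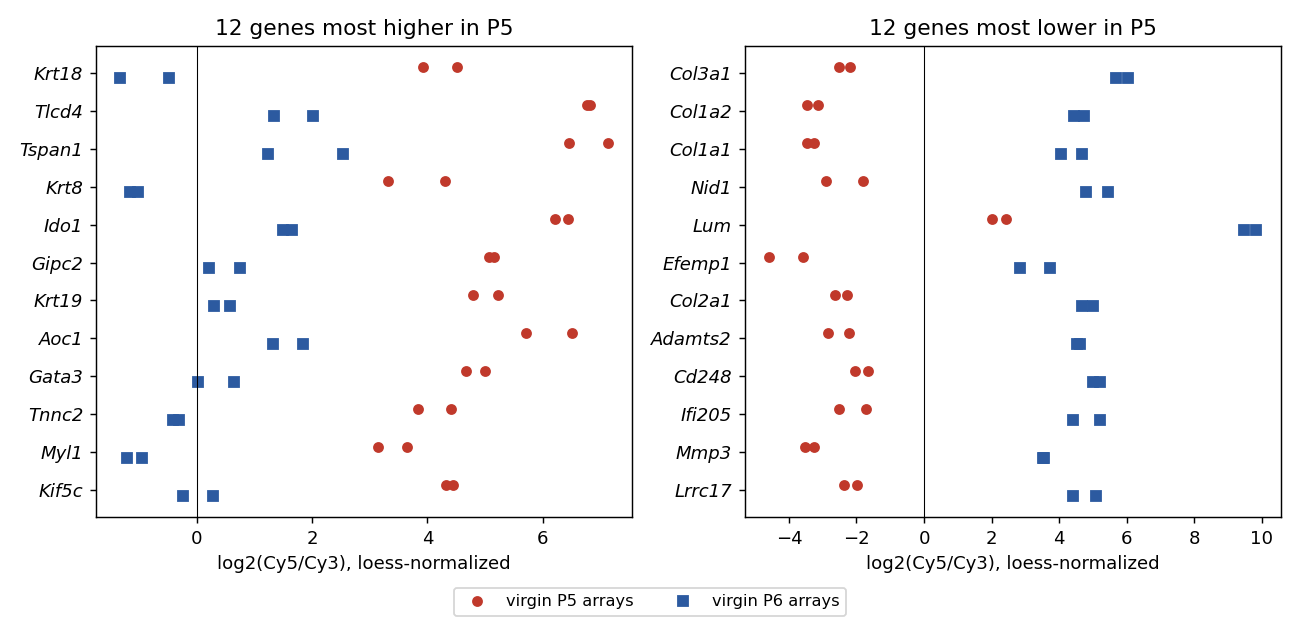
Log2(Cy5/Cy3) on each array for the 12 genes most higher (left) and the 12 most lower (right) in P5 among called genes; red circles are the 2 virgin P5 arrays and blue squares the 2 virgin P6 arrays. The genes were picked among those whose arrays do not overlap. Differences of means run from 4.36 (Kif5c) to 5.12 (Krt18) in the left panel and from -6.92 (Lrrc17) to -8.21 (Col3a1) in the right.

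Of 25 genes of epithelial junctions and polarity, 23 were higher in P5, 0 were lower, and their median difference was 2.58, beside 0.00 over all genes. The tight-junction claudin Cldn8 gave 5.86 and 5.62 in P5, against 1.71 and 1.05 in P6 (20.6-fold; adjusted p = 0.00253). Crb3, of the apical polarity complex, was 14-fold higher (7.89e-04), and the desmosome gene Pkp3 was 11.4-fold higher (2.44e-05), both numbers in brackets being adjusted p. Ocln, the tight-junction protein occludin, gave 2.51 and 1.77 in P5 and was not well above background on either P6 array, so it was at least 4.39-fold higher in P5 (adjusted p = 5.83e-04). For such genes the lower side is set at the faintest signal still well above background, or the dim probe's own where that is higher. Cldn7, Tjp3, Perp, Marveld2 and Dsp were higher by 3.73, 3.32, 2.80, 2.74 and 2.41 on the log2 scale, with 0.68 on the other probe of Marveld2. The other luminal genes followed, with 3.35 for Spint2 and 3.02 for Spint1, inhibitors of cell-surface proteases, and 2.60 for the tetraspanin gene Tspan8. Wfdc2, one of the 3 luminal genes that did not pass, gave 4.82 and 4.26 in P5, against 4.31 and 2.61 in P6 (adjusted p = 0.383), and its ranges overlapped. With the replicate block it passed (0.0157).

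Among 20 regulators of epithelial transcription and splicing, 15 were higher in P5 and 0 were lower, with a median difference of 2.75. Grhl1 and Grhl2, factors that maintain epithelial junction genes, gave 4.63 and 4.58 and 5.06 and 4.50 on the P5 arrays, against 0.78 and 0.21 and 1.48 and 0.53 on the P6 arrays. Their ranges were far apart, with differences of 4.11 ± 0.25 and 3.77 ± 0.32. Trps1, Tfap2c, Elf3 and Spdef were higher by 4.05, 2.79, 2.59 and 2.41 on the log2 scale. Esrp1, Esrp2 and Rbm47, RNA-binding proteins that set epithelial splicing, were 6.75-fold, 6.78-fold and 6.7-fold higher (adjusted p = 5.22e-04, 2.09e-04 and 1.14e-05). A second probe of Esrp1 gave -0.00, and the other probes of Grhl2 gave 0.32 and 1.08.

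The factors known to drive the mesenchymal state ran the other way. Of 22 mesenchymal transcription factors, 19 were lower in P5 and 1 was higher, with a median difference of -3.45. Zeb1 and Zeb2 are repressors known to bind E-boxes spelled CAGGTG, and their binding was not measured here. They gave -2.52 and -2.61 and -1.94 and -2.53 in P5, against 1.28 and 1.42 and 3.48 and 2.49 in P6. All P5 arrays lay below all P6 arrays, by -3.91 ± 0.20 for Zeb1 and -5.22 ± 0.35 for Zeb2 (adjusted p = 7.51e-06 and 2.25e-05). The 4 other probes of Zeb2 gave -3.95 to -0.62. Snai2, a repressor of the same group that basal mammary cells also use, was 29.5-fold lower in P5, and Snai1 was 4.1-fold lower, a call that ended with local backgrounds as given (adjusted p = 0.072) and with median centring (0.101). Twist1, Twist2 and the limb and fibroblast factor Prrx1 were 37.3-fold, 22.9-fold and 37.6-fold lower. One of the 4 other probes of Prrx1 had a difference near 0, at 0.10. Foxc1 alone of the list was higher in P5, by 1.14 ± 0.32 (adjusted p = 0.0458). Leaving out any one of the 4 arrays ended that call (adjusted p from 0.0795 to 0.223), as it did with local backgrounds as given.

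Genes of the luminal subtypes were divided. Of 13 hormone-sensing genes tested, 8 were higher in P5 and 2 were lower. Areg, the EGF-family ligand induced by oestrogen, gave 5.91 and 5.85 in P5, against 2.62 and 1.71 in P6 (13.1-fold; adjusted p = 6.76e-05). Prom1, a surface protein of hormone-sensing cells, gave 4.59 and 4.81 in P5, against 0.75 and 0.56 in P6 (16.5-fold; adjusted p = 2.17e-06). For both genes the populations did not overlap. Pgr, the progesterone receptor, gave 2.68 and 2.73 in P5, against 0.30 and 0.49 in P6, and was 4.95-fold higher. Prlr, the prolactin receptor, Foxa1, a factor that opens chromatin for the oestrogen receptor, Wnt4 and Tbx3 were higher by 2.98, 2.96, 1.99 and 1.77. The oestrogen receptor gene Esr1 was high in both populations against the cell-line mix, with 4.63 and 3.69 in P5 and 4.73 and 2.68 in P6. Its ranges overlapped and its difference did not pass the test (0.45 ± 0.58; adjusted p = 0.797). With local backgrounds as given, Esr1 was called higher in P5 (2.06; adjusted p = 0.00836). The oestrogen-induced gene Greb1 was among the 2 lower genes, with 0.03 and 0.28 in P5, against 1.38 and 1.95 in P6 (2.84-fold lower; adjusted p = 0.00228). With local backgrounds as given Greb1 no longer passed (adjusted p = 0.414), nor did Foxa1 with the scanner software's log ratio (0.123) or Tbx3 with median centring (0.063). The other probe of Tbx3 gave 0.02.

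Of 14 luminal progenitor genes, 6 were higher in P5 and none was lower by the test. In the fit with the block 10 were higher and 1 was lower. Elf5, the factor of the alveolar and progenitor lineage, gave 6.69 and 6.37 in P5, against 3.92 and 3.07 in P6 (3.03 ± 0.51; adjusted p = 0.00368). Kit, the stem cell factor receptor, gave 4.01 and 4.30 in P5, against 1.48 and 1.32 in P6 (2.76 ± 0.42; adjusted p = 0.00219). Both genes separated the arrays by population. The Notch target Hey1 and the progenitor factor Sox9 were higher by 2.80 and 3.87. Cd14, a receptor for bacterial lipopolysaccharide, and Csn3, kappa-casein, were higher by 3.01 and 2.92 (adjusted p = 0.0205 and 0.0225). The call of Cd14 ended without any one of the 4 arrays (adjusted p from 0.067 to 0.123), and that of Csn3 without replicate 1 or 2 of P5 or replicate 2 of P6 (0.0721 to 0.137). On the scanner software's log ratio, Elf5, Kit and Csn3 did not pass (adjusted p = 0.213, 0.0746 and 0.535). Of 12 milk protein genes, 2 were called, beside 16.1% of all genes in either direction and 7.34% higher. They were Csn3 and Muc15, a mucin of the milk fat globule. Muc15 differed by 2.70, but by 0.64 with the scanner software's log ratio, where it did not pass (adjusted p = 0.742). The replicate block raised the milk protein count to 8, beside 15.3% of all genes called higher. Beta-casein, Csn2, gave 8.20 and 8.47 in P5, against 5.01 and 4.29 in P6. The arrays did not overlap, but the pooled spread of this gene was wide and the difference of 3.68 ± 1.71 did not pass (adjusted p = 0.23). Csn1s1 and Csn1s2a gave differences of 2.60 and 1.77 that did not pass either. With the replicate block all of these passed, with adjusted p of 0.00176 for Csn2, 0.00494 for Csn1s1 and 5.44e-04 for Csn1s2a, and also when only the 4 arrays were fitted (0.00477, 0.0143 and 0.023).

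Collagen genes, Col3a1 first, were among the genes most lower in P5. Of 24 fibrillar and associated collagen genes and genes of their processing, 22 were lower in P5, with a median difference of -4.87. Col3a1, collagen III, gave -2.19 and -2.53 in P5, against 6.04 and 5.67 in P6. Col1a1 and Col1a2, the chains of collagen I, gave -3.46 and -3.25 and -3.47 and -3.15 in P5, against 4.06 and 4.69 and 4.43 and 4.74 in P6. No P5 value of these genes came near a P6 value, and the differences were -7.72 ± 0.65 for Col1a1 and -7.90 ± 0.47 for Col1a2 (adjusted p = 7.90e-05 and 1.27e-05). The probe kept for a gene was its brightest, and the other probes of Col1a1 gave -4.79 and -2.68 and that of Col1a2 -0.91. Other probes of Col3a1 showed smaller differences, -2.93 at the widest. Col2a1, collagen II, known from cartilage, differed by -7.30 on its brightest probe, while its 2 other probes gave -0.44 and 0.19. Col5a1, which starts collagen fibrils, was 104-fold lower in P5 (adjusted p = 2.08e-07), and Col5a2, Col14a1 and Col6a3 were 85.5-fold, 36.6-fold and 7.78-fold lower. Other probes gave -1.88 for Col5a1, -0.42 for Col14a1 and -0.91 for Col6a3. Enzymes and a chaperone that fold, trim and cross-link collagen went with them. Adamts2, which removes the amino-terminal propeptide, gave -2.23 and -2.84 in P5, against 4.61 and 4.53 in P6. Serpinh1, the collagen chaperone, was 57.6-fold lower, and the lysyl oxidases Loxl1 and Lox were 48.2-fold and 7.79-fold lower. Col8a1, a short-chain collagen, was the only member of the list called higher in P5, with 2.41 and 0.73 in P5, against -1.21 and -2.16 in P6 (adjusted p = 0.00895). That call ended without replicate 1 of P5 (adjusted p = 0.0595) or replicate 2 of P6 (0.0683), and when only the 4 arrays were fitted (0.052).

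Proteoglycans and elastic fibre proteins were lower in P5 as well. Of 9 small leucine-rich proteoglycans, 7 were lower and 0 were higher. Lum, which binds collagen fibrils, gave 2.42 and 2.02 in P5, against 9.83 and 9.47 in P6, so that it exceeded the cell-line mix in both. Dcn and Ogn, of the same family, were 99.7-fold and 68.9-fold lower in P5, but the other probe of Dcn gave -0.40, against -6.64 on its brightest. Of 24 elastic fibre and matrix glycoprotein genes, 21 were lower. Efemp1, fibulin-3, gave -3.59 and -4.59 in P5, against 3.74 and 2.84 in P6 (-7.38 ± 0.41; adjusted p = 1.05e-05). Fbn1, fibrillin-1, Sparc, Postn and Mfap5 were 107-fold, 78.6-fold, 56.9-fold and 26.8-fold lower. The other probe of Postn gave -0.72. Fn1, fibronectin, gave -3.42 and -3.11 in P5, against 0.24 and 2.23 in P6, with its P6 arrays further apart than those of the other genes named here.

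Markers of the fibroblast itself had a median difference of -4.81. Pdgfra and Pdgfrb, the receptors of platelet-derived growth factor, gave -2.86 and -3.43 and -2.19 and -2.14 in P5, against 2.97 and 2.12 and 3.73 and 4.37 in P6. Vim, vimentin, gave -5.05 and -5.25 in P5, against 0.56 and 1.11 in P6 (63.3-fold lower; adjusted p = 1.52e-05). In each case both P5 arrays were below both P6 arrays. The other probe of Vim gave -0.99 and that of Pdgfra -1.42. Serpinf1 and Cd34 were 118-fold and 105-fold lower, Thy1 36.7-fold, and Pi16 and Dpp4, known from adventitial fibroblasts, 24.6-fold and 22.8-fold. Cd248, endosialin of fibroblasts and pericytes, averaged -1.84 ± 0.28 in P5 and 5.11 ± 0.15 in P6 (SD, n = 2 each) (124-fold lower; adjusted p = 2.20e-06). The interferon-inducible gene Ifi205 and the secreted leucine-rich protein gene Lrrc17 were 122-fold and 121-fold lower. Ly6a, which encodes Sca-1, differed by -1.04 ± 0.41 and did not pass without the replicate block (with it, adjusted p = 0.0462). Cdh11, the fibroblast cadherin, did not pass on its brightest probe (0.49 ± 0.18; adjusted p = 0.123), yet its 2 other probes gave -6.44 and -5.68, and the mean over its probes was called lower in P5 (-3.88; adjusted p = 5.36e-05).

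**Figure D3:**
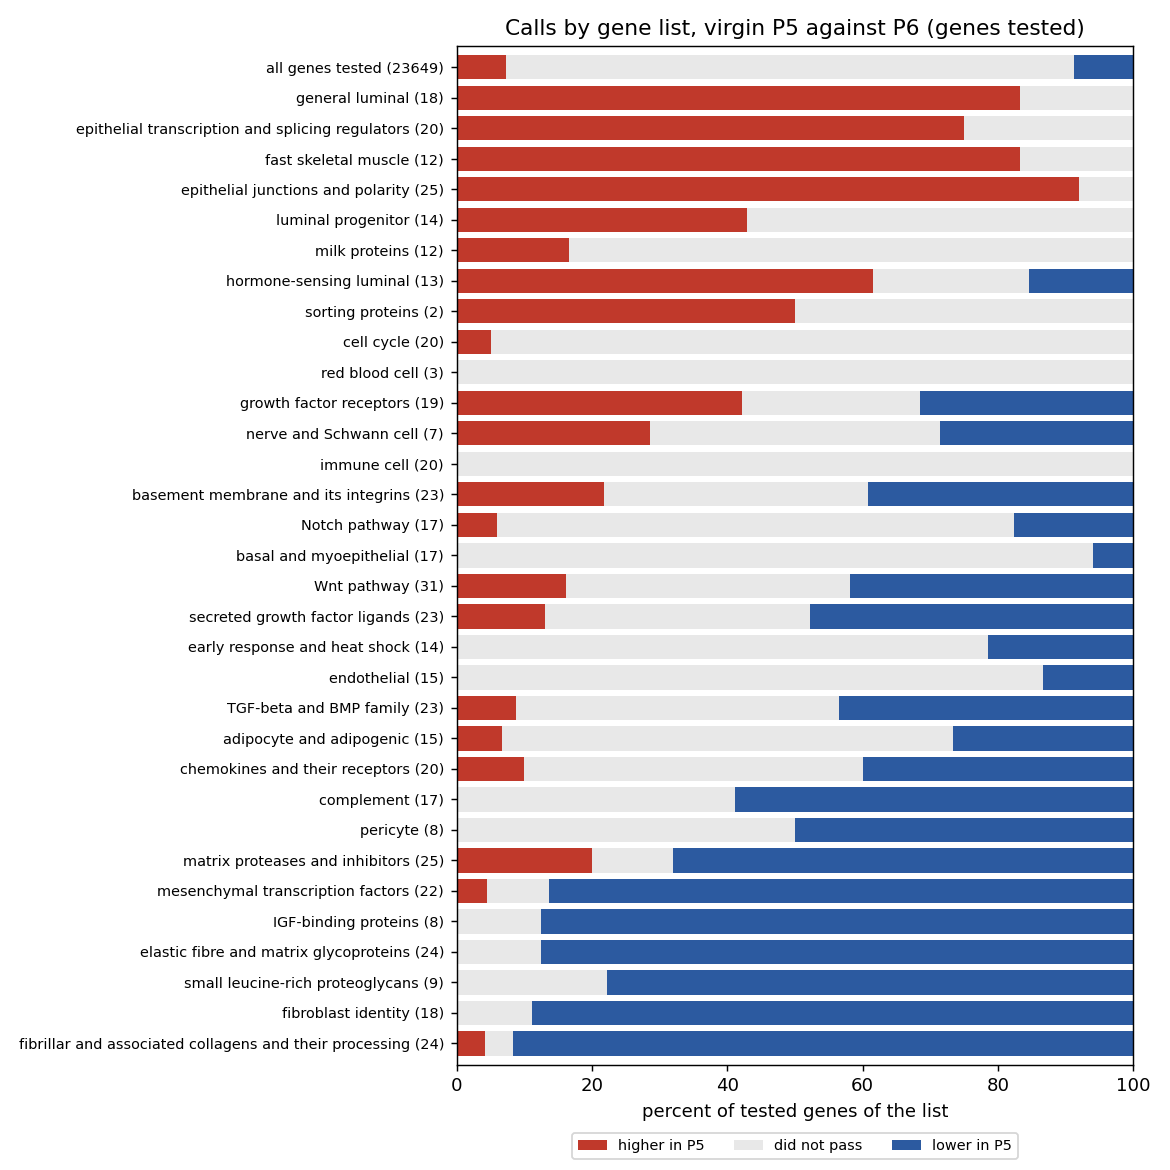
Share of each gene list called higher in P5 (red), called lower in P5 (blue) or not passing the test (grey), with the number of genes tested in brackets; lists run by their median difference from the most positive at the top, under a row for all genes tested. Junction genes reach 23 of 25 higher and collagens 22 of 24 lower, while no immune gene was called.

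Basement membrane genes were split by chain. Of 23 tested, 5 were higher and 9 were lower in P5, and their median difference was -0.05. Nid1, nidogen-1, which links laminin to collagen IV, gave -1.81 and -2.90 in P5, against 5.44 and 4.79 in P6 (-7.47 ± 0.42; adjusted p = 1.05e-05). The laminin chains Lama2 and Lama4 were 45.2-fold and 22.3-fold lower in P5, and Col4a1, a collagen IV chain, 29.8-fold. Other probes gave -5.20 and -0.35 for Lama2, against -5.50 on its brightest, and -3.80 to -0.48 for Lama4, against -4.48. Lama5, the laminin chain of epithelial basement membranes, gave 2.86 and 2.75 in P5, against -0.93 and -0.66 in P6 (12.1-fold higher; adjusted p = 0.00289). Itga6, the laminin receptor chain used to sort mammary epithelium, and Lamb3 were 5.72-fold and 3.76-fold higher in P5. The call of Lama4 ended when probes were also filtered in Cy3 (adjusted p = 0.181) and with local backgrounds as given (0.162).

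Most matrix proteases and inhibitors were lower in P5. Of 25 matrix proteases and inhibitors, 5 were higher and 17 lower in P5. Mmp3, the secreted stromelysin-1, gave -3.25 and -3.53 in P5, against 3.53 and 3.54 in P6. Htra1, a secreted serine protease, gave -2.94 and -3.28 in P5, against 3.63 and 3.65 in P6. The P6 arrays of both genes lay within a few hundredths of each other and far above P5. The inhibitor Timp2, the aggrecanase Adamts5 and the membrane-bound Mmp14 were 39.2-fold, 33.6-fold and 5.56-fold lower in P5, and Mmp14 did not pass with median centring (adjusted p = 0.0579). Among the genes higher in P5 were 3 of membrane-anchored proteases, with St14, matriptase, 10-fold, its partner Prss8 8.94-fold and Mmp15 5.56-fold higher (adjusted p = 1.52e-04, 2.00e-04 and 6.46e-04).

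Growth factor ligands and their receptors were read next. Of 23 growth factor ligands, 3 were higher in P5 (Areg, Btc and Ptn) and 11 were lower. Fgf10, the fibroblast growth factor that mammary buds need, gave -1.14 and -1.72 in P5, against 2.69 and 2.55 in P6 (16.5-fold lower; adjusted p = 1.50e-04). Its receptor gene Fgfr2 gave 4.95 and 3.58 in P5, against 1.92 and 0.34 in P6 (8.81-fold higher; adjusted p = 0.00642, and 0.068 when only the 4 arrays were fitted). The P5 arrays were below P6 for the ligand and above P6 for the receptor. Igf1 was 21.6-fold lower in P5, while Igf1r differed by -1.45 ± 0.58 and did not pass without the replicate block (with it, adjusted p = 0.0012). The other probes of Igf1 gave -3.05 and -0.45, against -4.43 on its brightest. The lymphatic growth factors Vegfc and Vegfd were 14.2-fold and 14.4-fold lower, and Csf1, the macrophage growth factor, 7.64-fold.

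Of 19 growth factor receptors, 8 were higher and 6 lower in P5. The EGF receptor family was divided. Erbb3 gave 4.48 and 3.89 in P5, against 1.03 and 0.04 in P6 (12.5-fold higher), and Erbb2 gave 1.87 and 1.75 in P5, against 0.35 and 0.23 in P6 (2.88-fold higher). The 4 other probes of Erbb3 gave 0.31 to 0.68, against 3.65 on its brightest, and the other probe of Erbb2 gave 0.58. Egfr, the receptor of Areg and Btc, gave -0.09 and -0.40 in P5, against 3.81 and 3.83 in P6 (16.7-fold lower; adjusted p = 1.64e-05). So Areg and Btc were higher in P5 and their receptor was higher in P6. Tnfrsf11a, which encodes RANK, was 3.09-fold higher in P5 (adjusted p = 0.00333, 0.0519 with the scanner software's log ratio and 0.0731 with local backgrounds as given). The other probe of Tnfrsf11a gave 0.44. The collagen receptor Ddr2 and the receptor tyrosine kinase Axl were 25.2-fold and 27.6-fold lower. Of 8 genes of IGF-binding proteins and proteases that cleave them, 7 were lower in P5, with Igfbp6, Igfbp7 and Igfbp3 24.9-fold, 18.3-fold and 14.2-fold lower. The other probe of Igfbp3 gave -0.25.

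In the Wnt pathway, 5 of 31 genes were higher in P5 and 13 were lower, beside 7.34% and 8.81% of all genes. In the blocked fit 5 were higher and 16 lower, beside 15.3% and 13.7% of all genes, so the higher count was near the share of all genes there. Wnt2, a ligand, gave 1.05 and 0.97 in P5, against 7.32 and 6.75 in P6 (65.2-fold lower; adjusted p = 4.22e-05). Wnt4, the ligand that acts after progesterone, gave 1.77 and 2.20 in P5, against -0.25 and 0.24 in P6. These ligands ranked the populations in opposite order. The secreted Wnt binders Sfrp4, Sfrp2 and Sfrp1 were 51.4-fold, 11.2-fold and 10.1-fold lower in P5. Axin2 and Nkd1, feedback targets of Wnt signalling, gave -0.84 and -0.96 and -0.22 and -0.78 in P5, against 2.73 and 1.58 and 3.82 and 3.34 in P6 (adjusted p = 8.05e-04 and 4.16e-04). Among receptors, Fzd1 was 16-fold lower and Fzd6 4.42-fold higher in P5. Rspo1, which potentiates Wnt signals, was 6.22-fold lower (adjusted p = 0.00133). With local backgrounds as given, Rspo1 and Sfrp1 no longer passed (adjusted p = 0.753 and 0.0599).

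Of 23 TGF-beta and BMP genes, 2 were higher and 10 lower in P5, beside 7.34% and 8.81% of all genes. Fstl1, a secreted follistatin-like protein, gave -3.98 and -3.71 in P5, against 2.52 and 2.70 in P6 (87.6-fold lower; adjusted p = 1.43e-06). The ligands Gdf10 and Bmp7 were 27.7-fold and 12.1-fold lower, and the receptor Tgfbr2 4.69-fold. Of 17 Notch pathway genes, Hey1 was called higher, and Heyl, a target of Notch, Notch2 and Rbpj were called lower, with Heyl 7.55-fold and Notch2 3.81-fold. In the blocked fit 5 TGF-beta and BMP genes and 2 Notch genes were higher, beside 15.3% of all genes. Heyl did not pass with local backgrounds as given (-1.44; adjusted p = 0.201). Other probes gave -0.41 and -0.09 for Tgfbr2, -0.67 and -0.03 for Notch2 and -0.98 for Heyl. With median centring, Tgfbr2 and Notch2 did not pass (adjusted p = 0.0893 and 0.137).

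**Figure D4:**
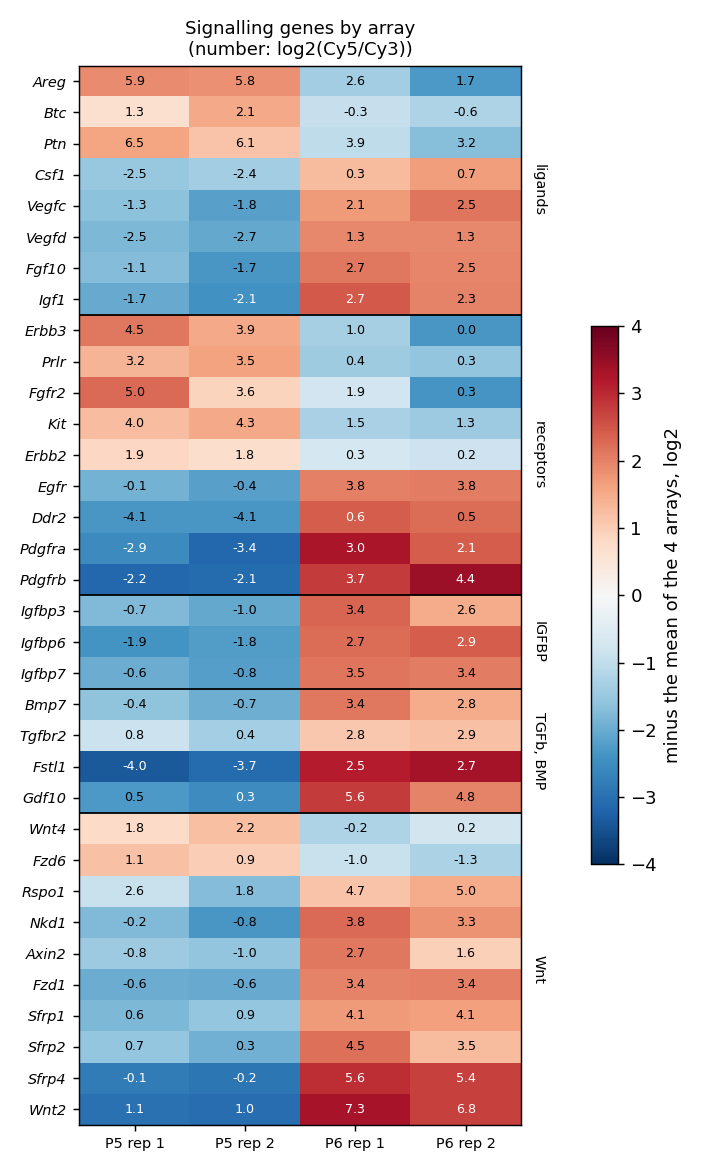
Log2(Cy5/Cy3) on each of the 4 arrays (numbers) for ligands, receptors, IGF-binding proteins and genes of the TGF-beta, BMP and Wnt pathways that passed the test; colour is each value minus the mean of the 4 arrays, red above and blue below. Fgf10 and Igf1 are blue in both P5 columns and Fgfr2, Erbb3 and Areg are red there. In every row both P5 values lie on one side of both P6 values, as they did for all 3819 called genes.

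Innate defence genes of the stroma formed another group on the P6 side. Of 17 complement genes, 10 were lower in P5 and 0 were higher (1 with the replicate block). C1ra and C1s1, the proteases that start the classical pathway, gave -0.57 and -1.72 and -2.59 and -2.60 in P5, against 4.96 and 4.22 and 2.55 and 2.86 in P6. C3, the central component, was 9.93-fold lower (-0.68 on the log2 scale by its other probe), and the C1 inhibitor Serping1 8.8-fold (adjusted p = 0.00554, and 0.41 with the scanner software's log ratio). Of 20 chemokines and receptors, 2 were higher and 8 lower, beside 7.34% and 8.81% of all genes. Ccl11, the eosinophil chemokine eotaxin, gave 1.27 and 1.25 in P5, against 5.85 and 6.05 in P6. Ccl2 and Ccl7, which attract monocytes, were 30.7-fold and 15.9-fold lower, Cxcl12 4.68-fold, and its scavenging receptor Ackr3 19.3-fold.

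Genes of other cell types were then read. Of 12 fast skeletal muscle genes, 10 were higher in P5 and 0 were lower. Tnnc2, troponin C of fast fibres, gave 4.41 and 3.84 in P5, against -0.30 and -0.40 in P6. Myl1, a fast myosin light chain, gave 3.64 and 3.15 in P5, against -1.20 and -0.94 in P6. Mylpf and Tnni2 were 17.5-fold and 16.2-fold higher, and Ckm, muscle creatine kinase, 6.3-fold. Pvalb, parvalbumin of fast fibres, was not well above background on either P6 array and was at least 6.57-fold higher in P5 (adjusted p = 2.87e-05). The mean log2 ratio over the list was 2.64 and 2.51 on the P5 arrays and -0.13 and -0.10 on the P6 arrays, so the P5 RNA held these transcripts on both slides. Their part in the other P5 differences was not tested.

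Of 20 immune cell genes, 0 were called in either direction by limma, and 1 had an unadjusted p under 0.05. The mean over these genes was -0.80 and -1.08 on the P5 arrays and -0.59 and -1.07 on the P6 arrays. Of 3 red cell genes tested, 0 were called by limma and 1 had an unadjusted p under 0.05. Of 15 endothelial genes, 2 were lower in P5, beside 8.81% of all genes. These were Tek, the angiopoietin receptor, by -0.89 ± 0.15 and Plvap by -1.25 ± 0.31. The mean over the list was 1.25 and 1.12 in P5 and 2.11 and 2.07 in P6. With the replicate block 4 endothelial genes were lower, 1 immune cell gene was lower and 1 red cell gene higher. Of all genes, 13.7% were lower and 15.3% higher in that fit. The call of Plvap ended without any one of the 4 arrays (adjusted p from 0.0614 to 0.14), and both ended with local backgrounds as given. Of 8 pericyte genes, 4 were lower in P5, among them Pdgfrb, which fibroblasts also express, and Cspg4, which encodes NG2, 6.87-fold. The other probes of Cspg4 gave -1.61 and 0.03, against -2.78 on its brightest. The pericyte mean was 0.27 and 0.25 in P5 and 2.56 and 2.81 in P6. The part of endothelial and pericyte RNA in the P6 values was not tested.

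Basal and myoepithelial genes were called at a share near that of all genes, 8.81% of which were lower. Of 17, 1 was lower in P5, Myl9, a smooth-muscle myosin light chain (-3.87 ± 0.83; adjusted p = 0.0133), and its call ended without replicate 2 of P5 (adjusted p = 0.0951) or without either P6 array (0.0534 and 0.075). In the blocked fit 5 basal genes were lower, beside 13.7% of all genes, and 1 was higher. Among 15 adipocyte genes, 4 were lower in P5 and 1 was higher, beside 8.81% and 7.34% of all genes. Lpl, lipoprotein lipase, gave -0.72 and 0.13 in P5, against 4.75 and 5.59 in P6 (44-fold lower; adjusted p = 5.25e-05), and Pparg, the adipogenic receptor, gave -0.21 and -0.28 in P5, against 2.25 and 2.17 in P6. Both separated the populations, and Plin4, a lipid droplet protein, was 5.98-fold lower. The exception, the lipase gene Pnpla2, was higher by 1.48 ± 0.43 (adjusted p = 0.048), a call that ended without any one of the 4 arrays (adjusted p from 0.0674 to 0.252). Among 7 nerve and Schwann cell genes, Sox10, also known from mammary epithelium, was 4.09-fold higher in P5, as was Erbb3, while S100b and Ngfr were 19.8-fold and 8.99-fold lower. Other probes gave 0.43 for Sox10 and -0.24 for Ngfr, and Ngfr did not pass with local backgrounds as given (adjusted p = 0.0701).

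Early response genes, which dissociation can induce, were partly lower in P5. Of 14 early response and heat shock genes, 3 were lower and 0 were higher, beside 8.81% and 7.34% of all genes. Egr2 gave 0.90 and 0.27 in P5, against 4.71 and 4.58 in P6, Dusp1 was 6.72-fold lower and Egr1 4.08-fold lower. In the blocked fit 6 were lower, beside 13.7% of all genes. The part of dissociation was not tested. Of 20 cell cycle genes, 1 was higher, the replication licensing gene Mcm2 (1.42 ± 0.38; adjusted p = 0.0348), and without replicate 2 of P5, replicate 1 of P6 or replicate 2 of P6 it no longer passed (adjusted p from 0.0991 to 0.227). Mki67, of dividing cells, gave -3.77 and -1.98 in P5, against -4.29 and -4.19 in P6, and did not pass (with the replicate block, adjusted p = 0.0442). All 20 differences were positive, from 0.47 to 1.45 with a median of 1.05, and for 17 of 20 genes both P5 arrays lay above both P6 arrays, beside 26.7% of all genes. In the blocked fit 10 were higher, beside 15.3% of all genes. The mean over the cell cycle genes was -2.59 and -1.33 on the P5 arrays, so replicate 2 of P5 stood above replicate 1, and -2.93 and -3.02 on the P6 arrays.

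The same contrast in pregnant mice shares no array with the virgin one, and the difference between both was tested as an interaction. It was called for 1733 genes, 7.33% of those tested, 836 with a more positive and 897 with a more negative P5 minus P6 in virgin than in pregnant mice (3.54% and 3.79%). Virgin P5 and P6 shared slides 1 and 2 and pregnant P5 and P6 slides 3 and 4, so slide and condition cannot be told apart in this test. Slide 3, with replicate 1 of pregnant P5 and P6, was scanned without the extended range, and without the arrays of that scan, which leaves replicate 2 of the pregnant groups, 1294 genes were called, 932 of them shared. With the replicate block 5330 genes were called, all 1733 of the first among them, and with median centring 289. The count was 825 without replicate 1 of virgin P5, 1071 without replicate 2 of virgin P5, 1027 without replicate 2 of virgin P6 and 1136 without replicate 2 of pregnant P5.

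The most positive was Stc2, the secreted glycoprotein stanniocalcin-2. It gave 5.25 and 5.23 in virgin P5, against 1.29 and 1.06 in virgin P6, and 2.07 and 2.12 in pregnant P5, against 3.98 and 4.44 in pregnant P6. Its P5 minus P6 was 4.06 in virgin and -2.11 in pregnant mice, and the difference was 6.18 ± 0.29 (SE; adjusted p = 7.88e-05). The order of the populations thus differed between the conditions. AW112010, the claudin gene Cldn10, Phyh, a peroxisomal enzyme, and Col8a1 were also higher in virgin P5 (1.82, 2.59, 3.40 and 3.25) and below 0 in pregnant mice (-4.03, -3.02, -2.03 and -1.90). The virgin calls of Cldn10 and AW112010 ended with the scanner software's log ratio (adjusted p = 0.113 and 0.0551) and with the authors' table (0.112 and 0.0547). The cytokine gene Il33 differed by 0.87 in virgin mice, which did not pass, and by -4.09 in pregnant mice.

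Kcnk6, a potassium channel gene, was the most negative. It gave -0.34 and -0.40 in virgin P5, against 3.29 and 2.44 in virgin P6, and 5.77 and 6.16 in pregnant P5, against 2.56 and 2.31 in pregnant P6. The difference of differences was -6.77 ± 0.62 (adjusted p = 8.31e-04), again with opposite orders. Lpl, -5.46 in virgin mice, was 0.94 in pregnant mice. Tent5c, a poly(A) polymerase gene, and Slc39a8, a metal transporter gene, gave -1.77 and -1.22 in virgin mice (the second did not pass, adjusted p = 0.208, but passed with the replicate block, 0.00263) and 4.64 and 4.82 in pregnant mice. St6gal1, a sialyltransferase, and Gldc, of the glycine cleavage system, gave -0.76 and -0.59 in virgin mice, neither of which passed, and 5.44 and 5.54 in pregnant mice. The virgin call of Tent5c ended with median centring (adjusted p = 0.354), when only the 4 arrays were fitted (0.0628), and without replicate 2 of P5 (adjusted p = 0.146) or replicate 1 of P6 (0.133).

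**Figure D5:**
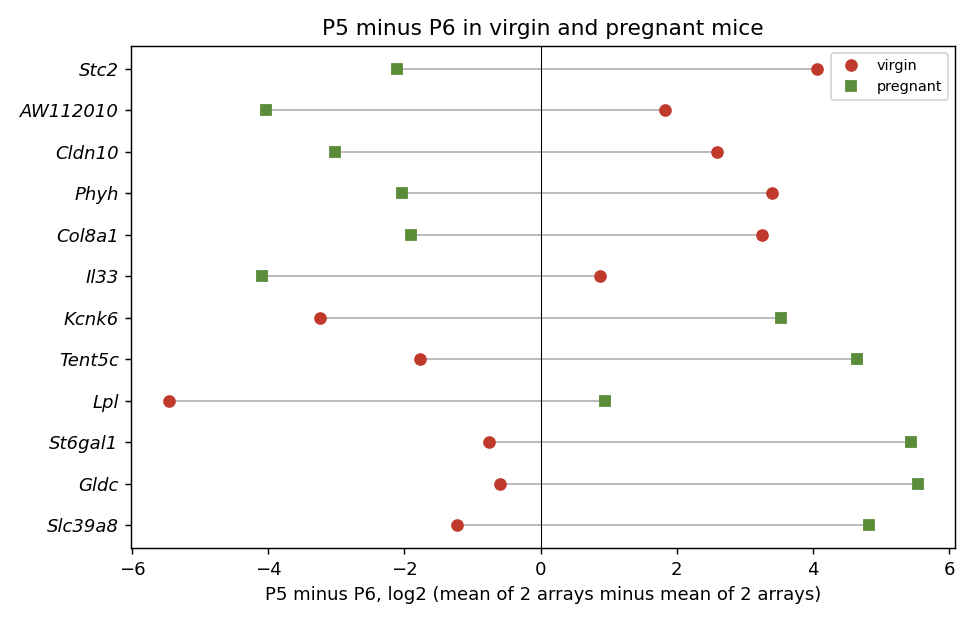
P5 minus P6 (log2, mean of 2 arrays minus mean of 2 arrays) in virgin (red circles) and pregnant mice (green squares) for the 6 genes with the most positive and the 6 with the most negative difference between conditions; grey lines join a gene's values. For the upper 6 genes, the virgin value lies to the right of 0 and the pregnant one to the left, and the lower 6 run the other way.

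Lists were read for the same test, in which 3.54% of all genes had a more positive difference in virgin mice and 3.79% a more negative one. Of 13 hormone-sensing genes, 6 had a more positive P5 minus P6 in virgin mice and 0 a more negative one, and the median P5 minus P6 was 1.82 in virgin and -0.04 in pregnant mice. Areg, for example, gave 3.72 in virgin and 0.19 in pregnant mice (difference 3.53 ± 0.43; adjusted p = 0.00295), and Pgr 2.31 and -0.12 (2.43 ± 0.19; 4.79e-04). The Pgr call ended with the scanner software's log ratio (adjusted p = 0.0509), the authors' table (0.114) and median centring (0.0657). Those of Foxa1 and Wnt4 ended under several alternatives, among them median centring (0.0601 and 0.0908). General luminal genes had medians of 3.28 in virgin and 3.22 in pregnant mice, with 3 more positive and 2 more negative. The collagen list had -4.87 in virgin and -5.16 in pregnant mice, with 3 members more positive and 0 more negative in virgin mice. Of the 12 skeletal muscle genes, 7 had a more positive difference in virgin mice, with medians of 2.64 in virgin and 0.98 in pregnant mice.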

How the data were processed

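RNA of sorted mammary cells was measured on 2-colour Agilent expression arrays, with the sorted cells in Cy5 and the reference mix in Cy3 on every array, per the labels' protocols. The submitters' processing notes name Agilent Feature Extraction 9.5.3.1 for the scans. The scanner files as deposited give mean and local background intensity of every spot in both channels, without a log. The same files hold, per the file headers, the scanner software's log10 ratio of Cy5 over Cy3, already background-subtracted and dye-normalized, and flags for outlier, saturated and well-above-background spots. The authors' deposited series table holds log2 ratios, which correlated with the scanner ratio at 0.990 to 1 across probes. Medians of its columns lay between -0.0182 and 0.102, so it was not centred on the median. It was used as an alternative.

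The work used limma 3.58.1 in R 4.3.3. Non-uniform local backgrounds, between 7 and 370 in a channel of an array, took the array's median instead, as in earlier work on these data. Backgrounds were then corrected with normexp (offset 50), and ratios were normalized by loess within arrays. Control spots and outlier spots (77 to 193 per array) were left out and spots of a probe averaged. Tested were the 34815 probes whose Cy5 signal was flagged well above background throughout at least 1 of the 6 wild-type groups. Of several probes of a gene the brightest was kept. Of the other probes of called genes, 9.53% pointed the opposite way, and among those of the 188 named genes 6 of 121 did. For 21 of the 73 called named genes with other probes, each other probe's difference was over 3 times smaller than the brightest's. Genes were named through RefSeq (22951 probes by accession, 6659 by symbol, 3109 by synonym), while 8455 kept the files' names. Among the named genes, Krt18 lacked a value on 1 array, replicate 2 of pregnant P5.

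Signal and the number of arrays limit the precision. Median Cy5 intensity on the 4 virgin P5 and P6 arrays ran from 88.2 to 159 with a median local background of 33 to 33.5. The flag for signal well above background was set for 73.4% to 82.4% of probes. The fit (lmFit, eBayes) gave each of the 6 wild-type groups a mean over 12 arrays. It was also run on simulated data with known changes. Those arrays were drawn independently of each other, so that run cannot speak for arrays that share a slide or scan. For same-numbered arrays, the deviations from the group means had r of 0.307 to 0.687 between the 6 pairs of groups within a condition, and -0.208 to 0.146 between groups of different conditions. The file headers show that such arrays share a slide or a scan, so the numbers pair arrays within a condition.

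Named were the 12 genes most higher and 12 most lower in P5 among called genes with a RefSeq symbol whose arrays did not overlap and whose slides had one sign, the 6 genes at each end of the test between conditions, and members of gene lists. Some members are counted in their lists and not reported singly here. Members, lists and rules were chosen with earlier results of these data known. Alternatives are given in the closing section. P4 and GFP arrays are not described here, although P4 entered the fit.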

Additional observations from a re-analysis of the deposited data

Results flagged for a closer look

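P5 minus P6 differed between virgin and pregnant mice by the interaction test for 1733 genes. The values that follow are the virgin P5 minus P6 less the pregnant one, on the log2 scale, for all named genes with an adjusted p under 0.05. No explanation was weighed. Slide and condition cannot be told apart in them, and of the 50 named genes 22 kept their sign and their call under all alternatives run.

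At the positive end stood 6.18 for Stc2, 5.85 for AW112010, 5.62 for Cldn10, 5.43 for Phyh, 5.15 for Col8a1 and 4.96 for Il33. At the negative end stood -6.77 for Kcnk6, -6.41 for Tent5c, -6.40 for Lpl, -6.21 for St6gal1, -6.13 for Gldc and -6.04 for Slc39a8.

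Among genes leading the P5 side in virgin mice, P5 minus P6 was more positive in virgin mice by 4.63 for Aoc1, 4.46 for Kif5c, 4.25 for Ido1, 4.21 for Gipc2 and 3.17 for Tlcd4. The hormone-sensing genes gave 4.64 for Tbx3, 3.81 for Prom1, 3.53 for Areg, 3.04 for Foxa1, 2.43 for Pgr and 2.03 for Wnt4. Tbx3 was 1.77 in virgin and -2.87 in pregnant mice, an opposite order of the populations. Other epithelial genes gave 3.89 for Hey1, 2.57 for Dsp, 2.36 for Spdef, 1.73 for Cldn4, 1.26 for Marveld2 and -1.62 for Rbm47.

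Skeletal muscle genes gave 3.25 for Tnnc2, 3.16 for Mylpf, 3.03 for Tnni2, 2.53 for Pvalb and 2.23 for Ckm. Their P5 minus P6 in pregnant mice ran from 0.10 (Pvalb) to 1.23 (Tnnc2).

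Ligands and receptors gave 4.32 for Ptn, 2.29 for Btc, 2.10 for Erbb2, -2.71 for Igf1 and -2.41 for Fgf10. Ptn was 2.71 in virgin and -1.61 in pregnant mice. Genes of the Wnt pathway gave -3.65 for Sfrp1, 1.66 for Fzd6 and 1.28 for Fzd1. Sfrp1 was -3.34 in virgin and 0.30 in pregnant mice.

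On the matrix and stromal side, the values were 4.07 for Mmp14, 3.14 for Col6a3, 1.40 for Lox, -4.58 for Adamts5, -2.07 for Snai2, -2.13 for Ccl2, -1.39 for Dpp4 and -2.63 for Ngfr. Mmp14 and Col6a3 were -2.48 and -2.96 in virgin and -6.54 and -6.10 in pregnant mice, so P5 was lower in both conditions and further below P6 in pregnant mice.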

How the results depend on the processing

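Of 174 named genes called in virgin P5 minus P6, 144 kept their call and sign under every alternative run and none changed sign. Of the genes not called, Esr1 turned to -0.01 without replicate 1 of P5 and -0.57 without replicate 2 of P6, and Cdh11 to -3.88 with the mean over probes. Esr1 was called higher in P5 with local backgrounds as given (2.06). The endothelial list's median was 0.00 with local backgrounds as given, and the difference between conditions for Marveld2 was -0.82 with the scanner software's log ratio and with the authors' table. The cause was not tested. With the replicate block, which is the same fit as the scan block, 6863 genes were called (3625 higher, 3238 lower in P5) and 5330 between conditions. With the slide as a block the counts were 6598 (3426 higher, 3172 lower) and 5020. The block ended the call of no named gene and added calls, given beside the genes. Median centring gave 2150 (973 lower) and 289, local backgrounds as given 1241 lower, and the fit of only the 8 P5 and P6 arrays 1036 between conditions. Leaving out 1 array gave 2487 to 2967 genes (1071 to 1255 higher, 1412 to 1712 lower) and 825 to 1540 between conditions, with fewer arrays. Of the lists' counts, 969 of 1122 stayed within 1.5 times the reported count, and of their medians 514 of 561 moved by under 0.5 without turning sign. Dim signal limits low genes, and differences of genes not above background on one side are lower bounds.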
